A study of Mus musculus with 13 samples.

Results

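*Mest*, *Sfrp5*, *Bmp3*, *Npr3* and *Cav1* are 5 genes of white fat whose expression is known to vary with fat mass expansion between inbred mice. They were found by symbol in the table of 34419 genes, each as 1 row, and all 5 passed the filter on low counts that left 17779 genes for testing. The mice were C57BL/6J males, bred in thermal chambers and housed at 22°C (room temperature, 7 mice) or 29°C (thermoneutrality, 6 mice) from birth to 13 weeks of age. Posterior hair was removed after weaning in both groups, which reduced insulation over the gluteal white adipose tissue (WAT), the subcutaneous depot that was sequenced, so no group with intact hair enters the comparison. RNA was made from whole tissue, with 1 library for each mouse. For a bulk sample, fewer cells of a type and less RNA per cell cannot be told apart. The comparison asks whether these genes differ in level, in spread between mice and in co-variation when fat has developed in a cool or a warm environment.

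A fat depot grows by enlargement of its adipocytes and by formation of new ones. *Mest* is an imprinted gene that is transcribed from the paternal allele and encodes a membrane protein of the endoplasmic reticulum, and its expression in WAT is known to differ widely between genetically identical mice. *Sfrp5* encodes a secreted antagonist of WNT ligands that is made by adipocytes. *Bmp3* encodes a bone morphogenetic protein (BMP) that acts against the signals of other BMP ligands. *Npr3* encodes the natriuretic peptide clearance receptor, which removes natriuretic peptides, hormones that stimulate lipolysis through cyclic GMP. *Cav1* encodes caveolin-1, the main protein of caveolae, the small pits that cover much of the adipocyte surface.

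Promoter windows are shown for *Mest* and for its neighbours *Copg2* and *Cep41*, whose expression followed that of *Mest* most closely among genes beside it. A window is also shown for *Sfrp5*, whose correlation with *Mest* passed after adjustment. Each runs from 250 bases before to 50 bases after a transcription start in RefSeq (build GRCm38.p6), is written 5′ to 3′ on the strand of the gene, and has GC box (GGGCGG) and CCAAT box matches on either strand in capitals. The *Mest* window is at chr6:30737800-30738099 on the + strand, *Copg2* at chr6:30896745-30897044 on the − strand, *Cep41* at chr6:30693700-30693999 on the − strand and *Sfrp5* at chr19:42202203-42202502 on the − strand.
Mest: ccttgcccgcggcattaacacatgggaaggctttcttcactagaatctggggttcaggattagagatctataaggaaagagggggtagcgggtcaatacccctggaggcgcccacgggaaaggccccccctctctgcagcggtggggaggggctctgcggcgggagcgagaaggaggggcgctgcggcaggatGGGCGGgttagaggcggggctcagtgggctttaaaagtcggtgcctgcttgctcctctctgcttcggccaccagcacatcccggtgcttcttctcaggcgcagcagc
Copg2: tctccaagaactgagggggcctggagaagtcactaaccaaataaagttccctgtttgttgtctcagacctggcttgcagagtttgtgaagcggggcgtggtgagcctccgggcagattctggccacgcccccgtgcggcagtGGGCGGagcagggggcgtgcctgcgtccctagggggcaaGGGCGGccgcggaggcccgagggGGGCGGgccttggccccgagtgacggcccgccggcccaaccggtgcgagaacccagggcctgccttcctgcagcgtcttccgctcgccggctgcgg
Cep41: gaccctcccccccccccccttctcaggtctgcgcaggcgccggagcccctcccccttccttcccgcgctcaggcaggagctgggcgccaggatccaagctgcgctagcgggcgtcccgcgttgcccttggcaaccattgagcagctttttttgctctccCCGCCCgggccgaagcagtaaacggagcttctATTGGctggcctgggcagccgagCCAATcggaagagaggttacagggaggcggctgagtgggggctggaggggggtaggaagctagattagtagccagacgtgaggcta
Sfrp5: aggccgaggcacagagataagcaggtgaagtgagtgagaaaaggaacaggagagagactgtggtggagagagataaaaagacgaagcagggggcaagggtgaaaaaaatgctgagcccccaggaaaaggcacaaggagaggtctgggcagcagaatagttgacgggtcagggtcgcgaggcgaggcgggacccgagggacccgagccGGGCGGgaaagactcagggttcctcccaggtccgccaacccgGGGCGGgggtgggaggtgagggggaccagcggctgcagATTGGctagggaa
The GC box was present once in *Mest* and *Cep41*, at 2 places in *Sfrp5* and at 3 in *Copg2*, and 35.66% of 32851 promoters of this length held it. The CCAAT box was present at 2 places in *Cep41* and at 1 in *Sfrp5*, with no match in *Mest* or *Copg2*, and 37.41% of promoters held it. No match was found in these 4 windows to a TATA box (TATAAA, in 13.62% of promoters), an E-box (CACGTG, 7.15%) or a cyclic AMP response element (TGACGTCA, 1.79%). The *Mest* window held 17 CG dinucleotides (68.6% of promoters held fewer), *Sfrp5* 15 (65.4%), *Cep41* 19 (71.9%) and *Copg2* 25 (81.6%). *Mest* had windows at 3 starts, and the one shown is start 2. The window of start 1, at chr6:30733256-30733555, held 8 CG dinucleotides, and that of start 3 held 17.

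Libraries held from 22356637 to 25245785 counts in total. Replicates 1 to 5 at 22°C formed a cluster of lower totals, and the 22°C replicates 6 and 7 lay with all 6 libraries at 29°C in a cluster of higher totals. The tissue label was checked against its markers. All 12 mature adipocyte genes were detected and tested, with a summed level between 32713 and 49751 CPM (counts scaled to the library total) at 22°C and between 36788 and 50032 CPM at 29°C. None of the 12 passed P-adj below 0.1 by edgeR or DESeq2, and 1 had an unadjusted p below 0.05. Skeletal muscle RNA was present in varying amounts. The sum of 15 muscle genes was between 853 and 85757 CPM at 22°C and between 114 and 6920 CPM at 29°C, and all 15 had higher fitted levels at 22°C, none past P-adj 0.1 by edgeR, 8 with an unadjusted p below 0.05 and 7 past 0.1 by DESeq2. Among markers of adipocyte progenitors, endothelium, smooth muscle and pericytes, macrophages, epithelium and peripheral nerve, none passed by edgeR, 3 had an unadjusted p below 0.05, and 1 progenitor marker passed by DESeq2. Of 7 tested lymphocyte markers, *Cd3e* alone passed by edgeR (higher at 22°C) and none by DESeq2. No marker in these lists was at 0 in every mouse. Over all 17779 tested genes, 1832 were higher and 1458 lower at 22°C with an unadjusted p below 0.05 by edgeR. Past P-adj 0.1 in either direction were 1.94% of genes by edgeR and 10.2% by DESeq2.

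Lower levels of *Bmp3*, *Npr3* and *Cav1* at 22°C did not pass the threshold after adjustment over all genes, and *Mest* and *Sfrp5* varied between mice far more than between temperatures. By edgeR 0 of the 5 genes passed P-adj below 0.1, where 1.94% of all tested genes passed. Without adjustment, *Bmp3*, *Npr3* and *Cav1* had p below 0.05 and were lower at 22°C, against 8.2% of all tested genes that were lower at that level. DESeq2 called the same 3 genes lower at P-adj below 0.1, where it called 4.65% of genes lower and 10.2% in either direction. The groups overlapped for each of the 5, whereas they did not overlap for 1.24% of all tested genes. Per kilobase of exon, *Cav1* had the highest level, at 729 ± 116 RPKM (CPM divided by the exon length in kilobases, ± SD over the 7 mice) at 22°C and 979 ± 109 RPKM over the 6 at 29°C. *Npr3* followed at 63.6 ± 18.99 and 92.5 ± 18.5 RPKM. *Mest* was at 23.4 ± 20.9 and 28.8 ± 11.4 RPKM, *Sfrp5* at 14.7 ± 10.3 and 14.4 ± 7.62 RPKM, and *Bmp3* at 7.34 ± 3.15 and 13.1 ± 3.75 RPKM. Neighbours in this order among the last 3 differed by less than the larger SD of the pair, except *Mest* and *Sfrp5* at 29°C, whose difference was larger.

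**Figure D1:**
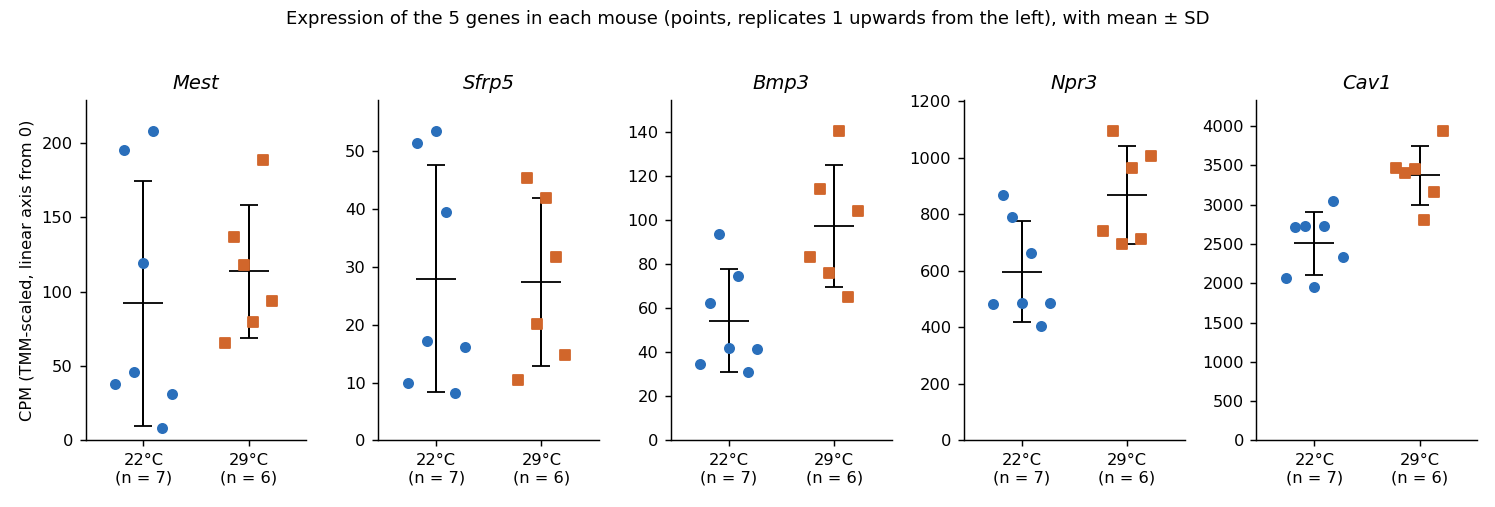
CPM of each of the 5 genes (y axes, linear from 0) in each mouse at 22°C (circles, n = 7) and 29°C (squares, n = 6), with black bars for the mean ± SD. *Mest* runs from 8.01 to 208 CPM at 22°C and covers the whole range at 29°C, whereas for *Cav1* 6 of 7 mice at 22°C lie below every mouse at 29°C.

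*Mest* (ENSMUSG00000051855.16) was lowest at 8.01 CPM in replicate 6, with a median of 46.1 and a highest value of 208 CPM in replicate 5 among the 7 mice at 22°C. At 29°C it was between 65.7 and 189 CPM, with a median of 106 CPM. At 22°C 4 mice were below every mouse at 29°C and 2 were above all of them, so the groups overlapped on both sides. The highest mouse at 22°C had 25.9 times the level of the lowest, against 2.87 times at 29°C. The 7 mice at 22°C averaged 92.2 ± 82.3 CPM (± SD) and the 6 at 29°C 114 ± 44.8 CPM, and edgeR gave a log2 fold change of −0.30 (P-adj = 0.822, SE 0.59). Single mice moved this value, from −0.10 without 22°C replicate 6 or 29°C replicate 5 to −0.64 without 22°C replicate 5, with −0.17, −0.19, −0.15 and −0.60 without 22°C replicates 1, 3, 7 and 2, and the muscle score as a covariate gave −0.13. Within the cluster of higher library totals, the 2 mice at 22°C were at 8.01 and 31.1 CPM, below all 6 at 29°C, and the log2 fold change was −2.54 (P-adj = 0.261, edgeR), while replicates 1 to 5 at 22°C ranged from 38.2 to 208 CPM.

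The spread of *Mest* was wide for a gene of its abundance. Its biological coefficient of variation within temperatures was 71.1%, at percentile 96.3 of all tested genes, where the fitted trend at its level was 24.8%. The SD of its log2 CPM was 1.68 at 22°C and 0.55 at 29°C. The exact permutation test of this difference gave p = 0.0536 (two-sided, n = 7 and 6), and p = 0.268 after adjustment for 5 such tests. Without replicate 6 the SD at 22°C was 1.23. *Sfrp5* came next, with a coefficient of 59.8% (percentile 95.2), followed by *Bmp3* at 34.0%, *Npr3* at 26.7% and *Cav1* at 19.6% (percentile 52.3). For these 4 genes the SD was also larger at 22°C, with p between 0.187 and 0.284 by the exact permutation test. The share of all tested genes with a larger SD at 22°C was not taken. Outside the 5, *Gnas* had 0.22 at 22°C and 0.07 at 29°C, and *Axin2* the reverse, 0.46 and 0.74. The 22°C group alone held libraries of both total clusters (5 lower, 2 higher), and its muscle RNA varied more. Their part in the spread was not tested.

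*Sfrp5* (ENSMUSG00000018822.8) ranged from 8.21 CPM in replicate 6 to 53.5 CPM in replicate 4 at 22°C, with a median of 17.2 CPM. At 29°C the range was from 10.5 to 45.3 CPM, with a median of 25.9 CPM. At 22°C the low mice were replicates 1, 3, 6 and 7 and the high mice replicates 2, 4 and 5, and the groups overlapped over most of their ranges. The 7 mice at 22°C averaged 27.9 ± 19.6 CPM (± SD) and the 6 at 29°C 27.4 ± 14.5 CPM, and edgeR gave a log2 fold change of 0.03 (P-adj = 0.986, SE 0.49). The direction was not stable, since leaving out single mice moved this value between −0.21 and 0.23.

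The WNT genes around *Sfrp5* showed few differences. Of 46 tested genes for ligands, receptors, inhibitors and targets, 1 passed P-adj 0.1, near the 1.94% of all tested genes that passed. At 22°C 28 had higher and 18 lower fitted levels, and the median log2 fold change was 0.11, beside 0.01 over all tested genes. The gene that passed was the WNT target *Ccnd1*, which encodes cyclin D1, at 27.7 ± 6.17 CPM at 22°C and 44.1 ± 9.05 CPM at 29°C (log2 fold change −0.67, SE 0.16, P-adj = 0.0873, edgeR). DESeq2 gave P-adj = 0.00588. With 1 mouse left out, edgeR kept P-adj below 0.1 without 22°C replicate 5, 6 or 7 or 29°C replicate 5, and gave up to 0.17 in the other 9 fits (without 29°C replicate 3). The other secreted frizzled-related genes did not pass. *Sfrp1* had a log2 fold change of 0.06 (P-adj = 0.957), *Sfrp2* 0.18 (0.821), *Sfrp4* −0.30 (0.769) and *Frzb* 1.22 (0.424, edgeR). Among ligands, *Wnt5a*, *Wnt10b* and *Wnt11* had values of −0.03, 0.16 and 0.27. The target *Axin2*, which is induced by WNT signals and limits them, had −0.14 (P-adj = 0.828), and the receptors *Fzd4* and *Lrp6* −0.23 and −0.05.

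*Bmp3* (ENSMUSG00000029335.6) ranged from 31.0 CPM in replicate 6 to 93.6 CPM in replicate 3 at 22°C, with a median of 41.7 CPM. At 29°C it ranged from 65.3 to 141 CPM, with a median of 93.7 CPM. At 22°C 5 of 7 mice were below every mouse at 29°C and replicates 3 and 5 lay within that range. The 7 mice at 22°C averaged 54.3 ± 23.3 CPM (± SD) and the 6 at 29°C 97.2 ± 27.8 CPM, and edgeR gave a log2 fold change of −0.84 (P-adj = 0.149, SE 0.26). DESeq2 gave P-adj = 0.0348, and without 22°C replicate 3 edgeR gave −1.03 (P-adj = 0.0978). With the library total cluster as a covariate the log2 fold change was −1.42 (P-adj = 0.227, edgeR), and with the skeletal muscle score −0.60 (P-adj = 0.422). No library at 29°C had a lower total, so the cluster covariate leaves 22°C replicates 6 and 7 against the 6 mice at 29°C.

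Across the BMP pathway 1 of 40 tested genes passed P-adj 0.1, near the 1.94% of all tested genes that passed. Of the 40, 18 were higher and 22 lower in fitted level at 22°C, and the median log2 fold change was −0.01. *Chrdl1*, which encodes a secreted antagonist of BMP ligands, was lower at 22°C. Its level was 85.1 ± 37.1 CPM (± SD, 7 mice) against 181 ± 51.8 CPM (6 mice), for which edgeR gave a log2 fold change of −1.09 (P-adj = 0.0952, SE 0.28). DESeq2 gave P-adj = 0.00518. Of the 13 edgeR fits that leave out 1 mouse, those without 22°C replicate 4 or 6 kept P-adj below 0.1, and the others reached up to 0.207 (without 29°C replicate 3). *Bmp4*, a ligand that commits precursors to the adipocyte lineage, had 0.57 (P-adj = 0.422), and *Gdf10*, the ligand closest to *Bmp3*, 0.36 (0.455, edgeR). *Bmp2* and *Bmp7* had −0.14 and −0.04, the receptors *Bmpr1a* and *Acvr2b* −0.01 and 0.24, and the co-receptor *Eng* −0.15.

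*Npr3* (ENSMUSG00000022206.8) ranged from 404 CPM in replicate 6 to 870 CPM in replicate 2 at 22°C, with a median of 487 CPM, and from 694 to 1094 CPM at 29°C, with a median of 854 CPM. At 22°C 5 of 7 mice were below every mouse at 29°C and 3 mice at 29°C were above every mouse at 22°C. The 7 mice at 22°C averaged 597 ± 178 CPM (± SD) and the 6 at 29°C 869 ± 173 CPM, and edgeR gave a log2 fold change of −0.54 (P-adj = 0.182, SE 0.19), while DESeq2 gave P-adj = 0.0675. With the skeletal muscle score as a covariate the log2 fold change was −0.35 (P-adj = 0.541, edgeR), and with the library total cluster −0.96 (P-adj = 0.237). As for *Bmp3*, the value with the cluster rests on 22°C replicates 6 and 7 against the 6 mice at 29°C.

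The signalling receptors for natriuretic peptides did not follow. *Npr1*, which makes cyclic GMP on binding atrial and brain peptides, was at 81.6 ± 16.2 CPM at 22°C and 80.6 ± 9.24 CPM at 29°C (log2 fold change 0.02, P-adj = 0.957, edgeR). *Npr2*, the receptor for C-type peptide, had 0.02 (P-adj = 0.921). Of 11 tested genes of this pathway 0 passed by edgeR, 1 had an unadjusted p below 0.05 and 1 passed by DESeq2, in each case *Npr3*. Over all tested genes 1.94% passed by edgeR and 10.2% by DESeq2. The peptide genes *Nppa*, *Nppb* and *Nppc* were below the filter, with at most 4, 2 and 59 counts in a library. *Pde3b*, a phosphodiesterase of adipocytes, had −0.08 (P-adj = 0.773), and *Ide*, a protease that degrades peptides, 0.14 (P-adj = 0.669).

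*Cav1* (ENSMUSG00000007655.17) was the least variable of the 5 genes. At 22°C it ranged from 1956 CPM in replicate 4 to 3052 CPM in replicate 6, with a median of 2714 CPM, and at 29°C from 2804 to 3938 CPM, with a median of 3429 CPM. At 22°C 6 of 7 mice were below every mouse at 29°C, and only replicate 6 overlapped, the mouse that was lowest for the other 4 genes. The 7 mice at 22°C averaged 2510 ± 400 CPM (± SD) and the 6 at 29°C 3372 ± 375 CPM, and edgeR gave a log2 fold change of −0.43 (P-adj = 0.127, SE 0.12), while DESeq2 gave P-adj = 0.0118. Without 22°C replicate 6 it passed (−0.48, P-adj = 0.0821, edgeR). With the skeletal muscle score as a covariate the log2 fold change was −0.28 (P-adj = 0.392, edgeR).

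Most genes of caveolae were lower in fitted level at 22°C. The counts that follow include *Cav1* itself. Of 13 tested genes of the list 10 had a negative log2 fold change, 9 of these had an unadjusted p below 0.05 (8.2% of all tested genes were lower at that level), and 1 passed P-adj 0.1 (1.94% of all tested genes). The median log2 fold change was −0.30, beside 0.01 over all tested genes. By DESeq2 8 were lower, against 4.65% of all genes, and 1 was higher. The gene that passed by edgeR was *Ehd3*, an ATPase of endocytic membranes, at 17.7 ± 3.92 CPM at 22°C and 29.4 ± 5.11 CPM at 29°C (log2 fold change −0.73, SE 0.15, P-adj = 0.0661). DESeq2 gave P-adj = 0.00061, and with 1 mouse left out edgeR lost the call without 29°C replicate 1, 2, 3 or 4 (P-adj 0.113 to 0.163). *Cavin1*, which is required to form caveolae, did not overlap between groups, at 623 to 1037 CPM at 22°C and 1058 to 1269 CPM at 29°C (log2 fold change −0.37, P-adj = 0.144, edgeR). *Cavin2* had −0.34 (P-adj = 0.156), *Cavin3* −0.63 (0.137), *Cav2*, the partner of caveolin-1, −0.33 (0.198), and *Ehd2*, an ATPase at the neck of caveolae, −0.30 (0.194, edgeR). The 3 genes with higher fitted levels at 22°C were *Cav3*, *Cavin4* and *Pacsin3*, which are known for their expression in striated muscle, at 2.42, 2.82 and 0.68. The part of muscle RNA in the values of this list was not tested beyond the covariate above, with which 11 of the 13 genes were lower in fitted level.

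**Figure D2:**
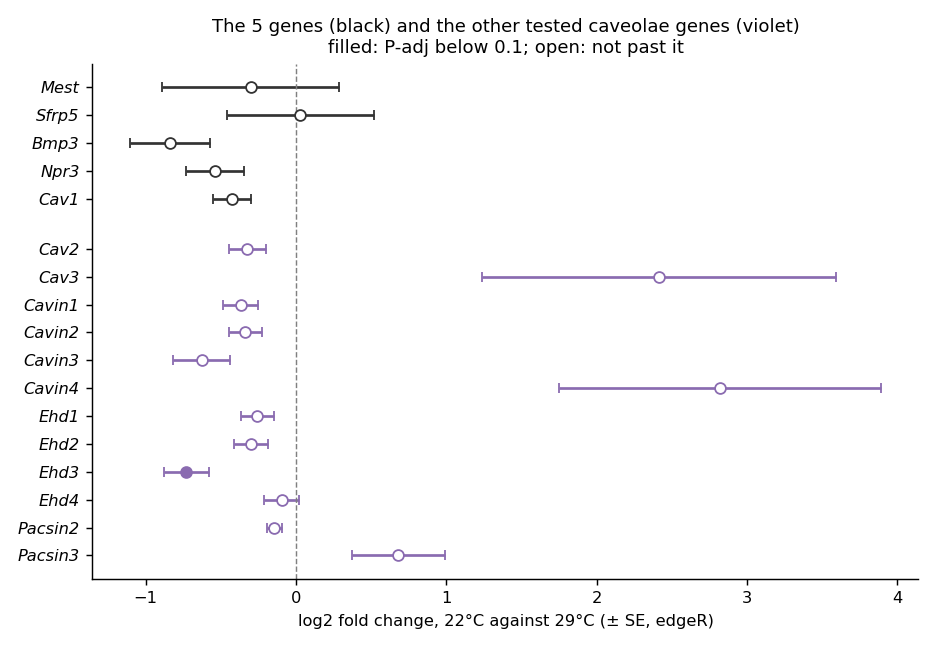
Log2 fold change at 22°C against 29°C (x axis, ± SE, edgeR) of the 5 genes in black and of the other 12 tested caveolae genes in violet, filled where P-adj was below 0.1. Only *Ehd3* is filled, and *Cav3*, *Cavin4* and *Pacsin3* lie to the right of 0.

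Within temperatures 2 of the 10 pairs among the 5 genes passed after adjustment, neither of them with *Cav1*. Correlations were taken over 13 mice on log2 CPM after the mean of each temperature was removed, with 100000 permutations within temperatures and adjustment over the 10 pairs. *Bmp3* and *Npr3* varied together (Pearson's r = 0.88, permutation p = 0.00068, adjusted 0.0068; Spearman's rho = 0.85, permutation p = 0.00139, adjusted 0.0139). The value was 0.89 without the 2 mice farthest from the median, 0.85 to 0.93 on omission of single mice, and 0.86 among the 8 libraries with higher totals. *Mest* and *Sfrp5* also varied together (r = 0.80, permutation p = 0.00232, adjusted 0.0116; rho = 0.71, permutation p = 0.0143, adjusted 0.0717). Their r was 0.77 without the 2 mice farthest from the median and 0.76 to 0.87 on omission of single mice, but 0.58 among the 8 libraries with higher totals. The 5 libraries with lower totals were too few for a value of their own.

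The other 8 pairs did not pass in r or rho. *Mest* with *Npr3* gave r = 0.53 and *Sfrp5* with *Npr3* 0.51, with an adjusted permutation p of 0.308 for each. *Cav1* had r between −0.33 and 0.24 with the other 4 genes. In each temperature alone, by exact permutation with adjustment over 20 values, *Bmp3* and *Npr3* had r = 0.89 at 22°C (n = 7, exact p = 0.00972, adjusted 0.0972) and 0.85 at 29°C (n = 6, exact p = 0.0639, adjusted 0.426). *Mest* and *Sfrp5* had r = 0.91 at 22°C (n = 7, exact p = 0.00575, adjusted 0.0972) and 0.53 at 29°C (n = 6, exact p = 0.275, adjusted 0.611). In rho at 22°C, *Mest* with *Npr3* had 0.79, *Mest* with *Bmp3* and *Sfrp5* with *Npr3* 0.75 each, and *Sfrp5* with *Bmp3* 0.64. *Mest* with *Sfrp5* had 0.82, and these values had an adjusted exact permutation p between 0.265 and 0.347. At 29°C the same pairs had rho of −0.09, −0.43, 0.37, 0.43 and 0.54. At 22°C *Mest* was at 46.1 CPM or less in replicates 1, 3, 6 and 7 and at 119 CPM or more in replicates 2, 4 and 5, and *Sfrp5* was at 17.2 CPM or less and 39.4 CPM or more in the same mice. These 4 and 3 mice were too few for a value within each set. Whether any r differed between temperatures was not tested.

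**Figure D3:**
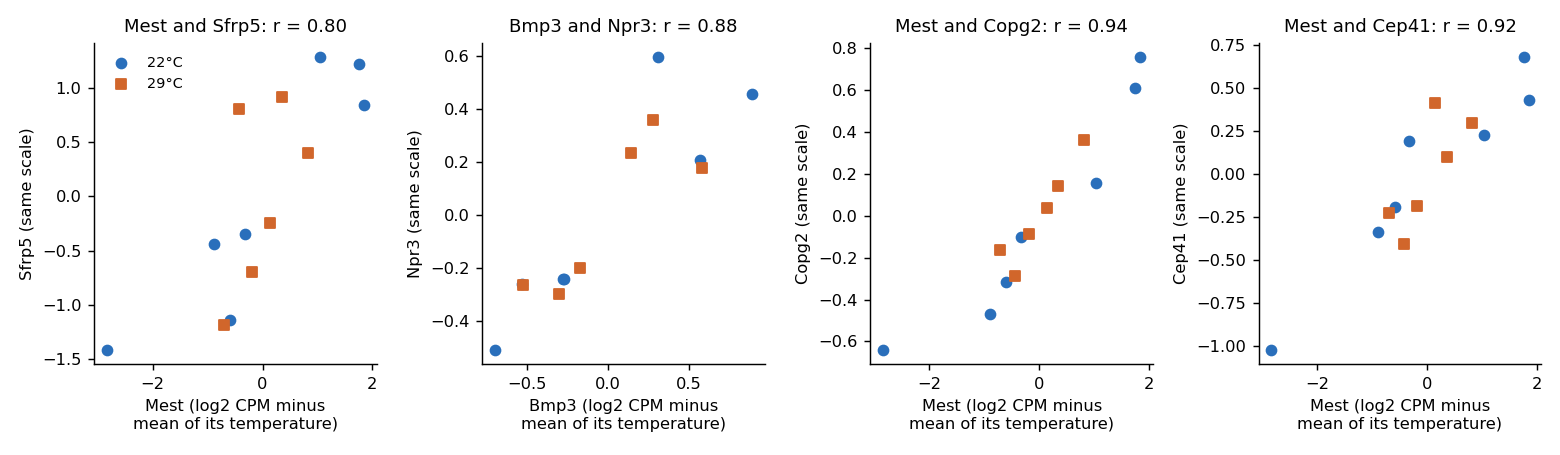
Log2 CPM minus the mean of the mouse's temperature (both axes) for *Mest* with *Sfrp5*, *Bmp3* with *Npr3*, *Mest* with *Copg2* and *Mest* with *Cep41*, each point a mouse at 22°C (circles) or 29°C (squares). Points rise from left to right in all 4 panels, with r of 0.80, 0.88, 0.94 and 0.92, and 1 mouse at 22°C, replicate 6, lies far to the left in the *Mest* panels.

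None of 35 relations between the 5 genes and leptin, cell type scores or the library total passed after adjustment. *Cav1* had the highest values, with r = 0.75 for the mature adipocyte score (permutation p = 0.008, rho = 0.65) and −0.72 for the skeletal muscle score (permutation p = 0.00945, rho = −0.60), each with an adjusted p of 0.165 for r and 0.814 for rho. Leptin (*Lep*), a hormone that adipocytes release as they enlarge, had r between 0.26 and 0.40 with the 5 genes. *Mest* had r = −0.65 with the library total (adjusted permutation p = 0.735) and 0.05 with the mature adipocyte score.

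**Figure D4:**
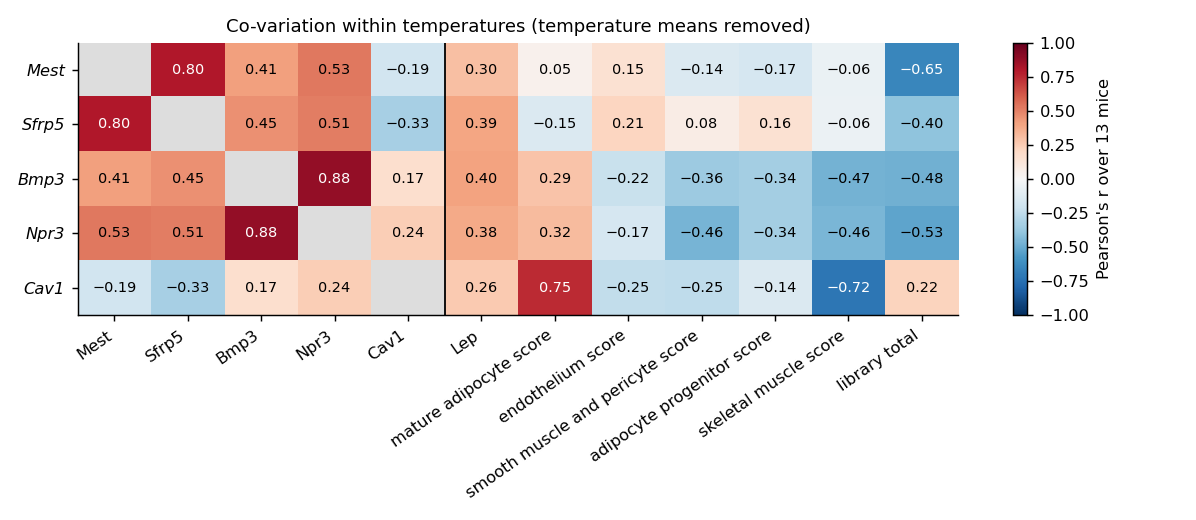
Pearson's r over 13 mice (colour and number) of each of the 5 genes (rows) with the others, with leptin, with mean log2 CPM scores of cell type markers and with the library total (columns), after removal of temperature means. *Mest* with *Sfrp5* (0.80) and *Bmp3* with *Npr3* (0.88) are the highest among the 5 genes, and *Cav1* is highest with the mature adipocyte score (0.75).

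The genes whose pattern was most like each of the 5 were taken as the 5 of 17778 others with the highest r over the 13 mice, as a description in which all values share libraries. For *Mest*, 2 of these 5 were its direct neighbours among tested genes, *Copg2* with r = 0.94 (rank 1) and *Cep41* with 0.92 (rank 3), and *Klf14*, the next gene beyond *Copg2*, had 0.82 (rank 29). *Copg2* encodes a subunit of the vesicle coat COPI, *Cep41* a protein of cilia and *Klf14* a transcription factor that is studied for its effects on fat. *Copg2* ranged from 47.4 CPM in replicate 6 to 125 CPM in replicate 5 at 22°C, the same mice that were lowest and highest for *Mest*, and from 75.7 to 119 CPM at 29°C. *Mest* and *Copg2* lie on opposite strands and share 912 exon bases, 23.1% of *Mest* and 17.8% of *Copg2* (GENCODE M21). With an unknown strand setting, reads in these shared bases cannot be told apart. *Cep41* and *Klf14* share no exon bases with *Mest*. *Cep41* was at 3.43 CPM in 22°C replicate 6, and between 5.56 and 13.0 CPM in the other 12 mice. The other neighbours at up to 5 tested genes on either side had r between −0.46 and 0.62, and 0 of 7 tested genes of the locus passed P-adj 0.1 between temperatures by edgeR, 1 had an unadjusted p below 0.05 and 1 passed by DESeq2. *Klf14* had the smallest p of these (log2 fold change −1.19, SE 0.34, P-adj = 0.118, edgeR). Over all tested genes 1.94% passed by edgeR and 10.2% by DESeq2. *Ube2h* and *Klhdc10*, which are more abundant genes of the region, had log2 fold changes of 0.05 and 0.07.

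Other genes also followed *Mest*. *Hdgfl2* had r = 0.94, *AC087871.1* and *Epn2* 0.90 each. *Hdgfl2* had r = 0.99 at 22°C and 0.45 at 29°C, whereas *Copg2* had 0.95 in each. Among 16 tested imprinted genes 4 had r above 0.5 with *Mest*, with a median of 0.12. Of all 17778 other tested genes, 1224 had r above 0.5 with *Mest*, with a median of −0.01. *Peg3*, a paternally expressed zinc finger gene, had r = 0.82, *Nnat* 0.77 and *Dlk1*, which marks adipocyte precursors, 0.75, while *Plagl1*, a regulator of other imprinted genes, had 0.47, *Igf2* 0.08, *Sgce* −0.01 and *Gnas* −0.12. The 3 highest of these values lean on 22°C replicate 6. That mouse was the lowest of all for *Mest* (8.01 CPM), *Peg3* (19.95 CPM), *Nnat* (578 CPM) and *Dlk1* (0.77 CPM). Between temperatures 1 of these 16 genes passed (1.94% of all tested genes did), *Sgce*, which encodes epsilon-sarcoglycan and is also paternally expressed. Its level was 66.9 ± 9.10 CPM (± SD) over the 7 mice at 22°C and 84.0 ± 3.20 CPM over the 6 at 29°C, with no overlap (log2 fold change −0.33, P-adj = 0.0945, SE 0.08, edgeR). DESeq2 gave P-adj = 0.0109. With 1 mouse left out, edgeR kept the call without 22°C replicate 2 or 6 and gave P-adj up to 0.209 in the others (without 29°C replicate 3). *Peg3*, *Plagl1* and *Igf2* had log2 fold changes of 0.02, 0.02 and 0.23, *Nnat* −0.74 (P-adj = 0.347) and *Dlk1* −0.75 (P-adj = 0.168, edgeR).

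**Figure D5:**
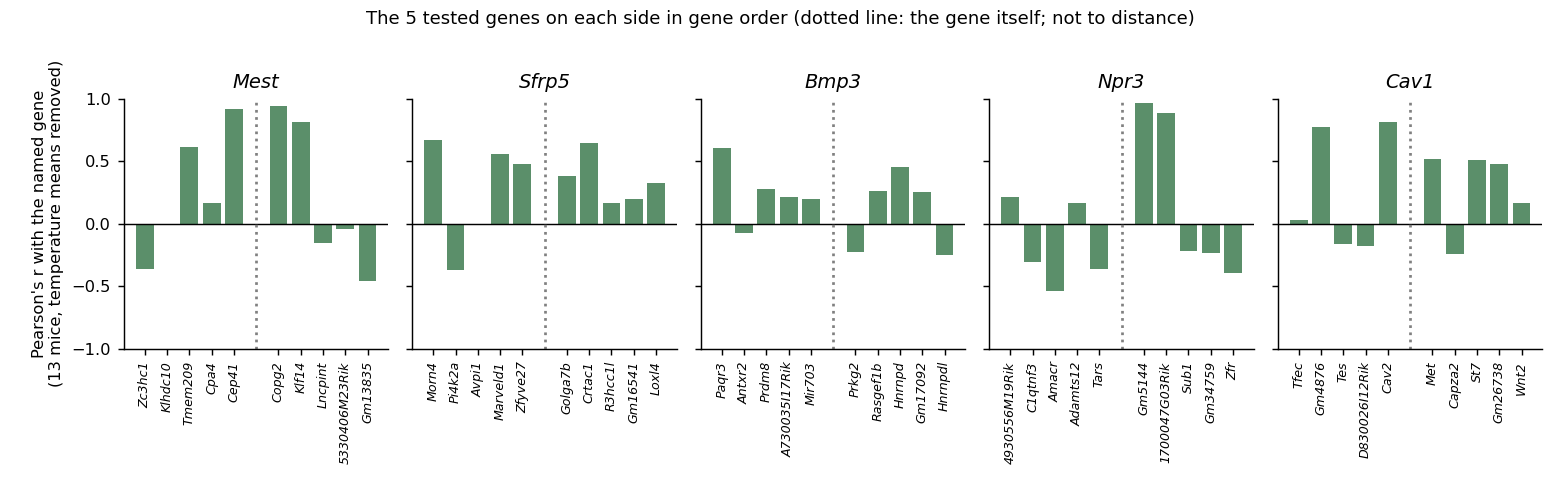
Pearson's r over 13 mice (y axis, temperature means removed) of each of the 5 genes with the 5 tested genes on either side of it in gene order (x axis, not to distance). High bars stand beside *Mest* (*Cep41*, *Copg2*, *Klf14*), *Npr3* (*Gm5144*, *1700047G03Rik*) and *Cav1* (*Cav2*, and *Gm4876* at 0.77), and the highest beside *Bmp3* is 0.60.

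The genes with the closest patterns to the other 4 were as follows. *Sfrp5* was followed by *Anks6* (r = 0.93), *Gm17035* (0.92), *Ndrg1* (0.91), *Endou* (0.91) and *Gm47416* (0.91). *Bmp3* was followed by *4930455H04Rik* (0.89), *Exd1* (0.89), the caveolae gene *Cavin2* (0.88), *Cfap99* (0.88) and *Npr3* (0.88). *Npr3* was followed by *Gm5144* (0.97), *Homez* (0.90), *Palmd* (0.90), *4930455H04Rik* (0.89) and *1700047G03Rik* (0.88). *Gm5144* and *1700047G03Rik* are the next 2 tested genes on one side of *Npr3*. *Gm5144* lies on the opposite strand and shares 321 exon bases with *Npr3*, and reads in these bases are uncertain, as for *Mest* and *Copg2*. *Cav1* was followed by *Psme2* (0.93), *Fbxo4* (0.93), *Ube2d2a* (0.92), *Trmt5* (0.92) and *G630030J09Rik* (0.92). *Cav2*, which lies beside *Cav1*, had r = 0.81 (rank 105), and 12 of 12 mature adipocyte genes had r above 0 with *Cav1*, with a median of 0.52, beside −0.01 over all tested genes. Adiponectin (*Adipoq*), the most specific of these markers, was at 2239 ± 436 CPM at 22°C and 2779 ± 289 CPM at 29°C (log2 fold change −0.31, SE 0.14, P-adj = 0.247, edgeR). It does not stand for the whole list. *Adipoq* had the largest fall of the 12 genes and alone had an unadjusted p below 0.05 (edgeR). In fitted level 7 of the 12, *Adipoq* among them, were lower in the cool group and 5 were higher (median −0.08). *Lep* was lower at 22°C (log2 fold change −0.78, SE 0.15, P-adj = 0.0564, edgeR).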

How the data were processed

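RNA of gluteal WAT was sequenced on an Illumina HiSeq from 13 mice, whose housing temperature and replicate number come from the submitters' labels. The authors aligned reads with STAR 2.7.5a (the submitters' processing notes name GRCm39), counted them with featureCounts and deposited raw counts per gene, together with regularized log2 values that the authors made with DESeq2. The annotation and strand setting are not given in the sources used here. Symbols were matched by identifier (34006 of 34419 genes), and exons by GENCODE M21, which may differ from the annotation that was counted. Counts were tested with edgeR 4.0.16 in R 4.3.3 (TMM, filterByExpr, quasi-likelihood F test, Benjamini-Hochberg adjustment over all genes, P-adj below 0.1, no covariate). Standard errors were derived from the fold change and its F statistic. CPM use TMM-scaled totals, and log2 CPM a prior count of 2. DESeq2 1.42.0 and limma 3.58.1 served as alternatives, beside those in the closing section. The 5 genes and the gene lists were chosen with earlier results of these data known.

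Genes are named by a rule that takes the 5 genes, in each of 6 lists (*Mest* locus, imprinted, WNT, BMP, natriuretic peptide and caveolae genes) each gene past P-adj 0.1 and the 3 most abundant, 30 genes set by name, and the 5 genes most like each of the 5. Other genes named in the text were chosen after their values were seen, and some that the rule gives are not reported. Total counts limit precision only for genes near the floor, where a count of 0 allows 3 counts (0.119 to 0.134 CPM), which covers counting error alone. No library was counted as a repeat of another, since counts differed beyond sampling noise in all 78 pairs (chi-square per gene of at least 11.3). Mice were housed singly, with little bedding. Whether they came from separate litters is not given, and p-values rest on the spread between these mice. The labels do not say whether replicate numbers pair the mice. Of 6 pairs of mice with the same number, 5 correlated above 0.1 and 1 at −0.56. Mice of unlike number were not compared, so these values cannot decide whether the numbers pair the mice. The edgeR test was checked on simulated counts, and the exact permutation test of means on simulated normal values. The permutation tests of correlation and of spread were not checked in this way.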

Additional observations from a re-analysis of the deposited data

Results flagged for a closer look

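In 98 groups of mice (49 genes at 2 temperatures), 5 values stood apart from the rest of their group on the log2 CPM scale by a gap test that flags about 1 in 20 groups by chance. *Peg3* was 19.95 CPM in 22°C replicate 6, with the next mouse at 114 CPM. The same mouse had the lowest *Mest*, *Sfrp5*, *Bmp3* and *Npr3* of its group. *Cavin1* was 623 CPM in 22°C replicate 1, with the next mouse at 845 CPM. *Axin2* was 13.3 CPM in 29°C replicate 3 and 36.4 CPM or more in the other mice. *Ube2h* was 114 CPM in 29°C replicate 1, against at least 140 CPM. *Gnas* was 1053 CPM in 29°C replicate 6, against at most 958 CPM. No value of *Mest*, *Sfrp5*, *Bmp3*, *Npr3* or *Cav1* itself was set apart by this test.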

How the results depend on the processing

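Past P-adj 0.1 by edgeR were 345 genes, 130 higher and 215 lower at 22°C, and 0 of the 5 genes. The number of genes was 40 at P-adj below 0.05, 1676 with DESeq2 (914 higher and 762 lower), 42 without a filter on low counts, 41 with the muscle score and 4 with the library total cluster as a covariate, 8 in the libraries with higher totals alone (2 and 6 mice), and 0 by the exact permutation test, by which 2766 genes had an unadjusted p below 0.05 and the smallest adjusted p was 0.101. Leaving out each mouse gave from 32 genes (without 29°C replicate 3) to 652 (without 22°C replicate 6). Of the 5 genes, 3 passed with DESeq2 (*Bmp3* −0.84, *Npr3* −0.54, *Cav1* −0.43) and 0 or 1 when each mouse was left out, *Bmp3* without 22°C replicate 3 (−0.71 to −1.03 over all 13) and *Cav1* without 22°C replicate 6 (−0.37 to −0.48). *Sfrp5* changed sign to −0.039 with the replicate block, −1.17 with the library total cluster as a covariate and −1.17 in the libraries with higher totals alone, −0.087 with limma and −0.13 in the exact permutation test, and ran from −0.21 to 0.23 when each mouse was left out. Whether the replicate numbers pair the mice is not known. The replicate block gave 263 genes and none of the 5, with *Bmp3* at −0.86 and *Cav1* at −0.42. In all of these settings *Mest*, *Bmp3*, *Npr3* and *Cav1* kept a negative log2 fold change. With the library total cluster as a covariate, each such value rests on the 2 mice at 22°C with higher totals. The 2 pairs that passed, *Bmp3* with *Npr3* and *Mest* with *Sfrp5*, passed in all 19 alternatives. Among pairs that did not pass, the sign changed for *Mest* with *Bmp3* (−0.0055) and *Mest* with *Cav1* (0.086) without the 2 farthest mice, for *Mest* with *Cav1* (−0.33 to 0.24) on omission of single mice, and for *Bmp3* with *Cav1* by Spearman's rho (−0.011) or with the muscle score removed (−0.29, and −0.14 for *Npr3* with *Cav1*). The pathway genes that passed, *Chrdl1*, *Ehd3*, *Sgce* and *Ccnd1*, were followed through the same alternatives, which was decided after seeing the data. All 4 passed with DESeq2 (P-adj 0.00061 to 0.0109), DESeq2 size factors (0.0625 to 0.0942) and limma (0.0537 to 0.0823). None of them passed with the muscle score (P-adj 0.146 to 0.284) or the library total cluster (0.177 to 0.417) as a covariate, and each kept its direction. The causes were not tested.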

Other observations

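Genes of the other pathways that followed the 5 genes were picked here after their values were seen, and r is given as a description over 13 mice that share libraries. *Sfrp5* had r = 0.86 with *Chrdl1*, the BMP antagonist that was lower at 22°C, and 0.80 with *Chrd*, the related antagonist chordin. *Chrdl1* also had r = 0.73 with *Mest*. At 22°C *Chrdl1* was lowest in replicate 6 at 46.8 CPM and highest in replicate 4 at 149 CPM, where *Sfrp5* was lowest and highest as well. *Nnat*, an imprinted gene that encodes neuronatin, had r = 0.80 with *Sfrp5* and 0.77 with *Mest*, with 578 CPM in replicate 6 and 2460 CPM in replicate 2 as its extremes at 22°C, and 1085 and 3437 CPM as those at 29°C.

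*Fzd4*, which encodes a WNT receptor, had r = 0.76 with *Sfrp5*, 0.77 with *Npr3* and 0.65 with *Mest*. *Plagl1* had r = 0.75 with *Npr3* and 0.70 with *Bmp3*. *Cav1* had its lowest values among these lists with *Kremen1*, which encodes a receptor of WNT inhibitors (−0.92), with *Prkg1*, the cyclic GMP-dependent kinase (−0.84), and with *Frzb* (−0.81). The muscle genes *Cav3* and *Cavin4* had −0.74 and −0.75 with *Cav1*, beside −0.72 for the muscle score, and the part of muscle RNA in these values was not tested.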
